A study of Mus musculus with 45 samples.

Results

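The comparison described here is that of CT26 cells carrying hairpin sh3, a short hairpin RNA directed at Soat1, with CT26 cells carrying shLucif, a control hairpin against luciferase. It rests on 6 of the 45 samples of the series, 3 libraries labelled sh3 and 3 labelled shLucif, chosen by their labels and not by any measured value, and it covers every gene. CT26 is a mouse colon carcinoma line. The wider study treated CT26 and Hepa1-6 cells with a compound or knocked down Soat1 in them, and its title places SOAT1 among the checkpoints of cancer stem cells. The shLucif and sh3 cells were given no drug, and their total RNA was collected 24 hours after seeding. The sh3 cells are labelled as a SOAT1 knockdown and the shLucif cells as its control, and all of them carry a hairpin and share 1 batch date. CT26 cells with hairpins sh1 and sh2, 3 libraries each, served as a second reference, because they share the target gene with sh3. The labels do not say whether each knockdown line is a pool or a clone, nor whether the 3 libraries of a group came from separate cultures. The p-values therefore measure only the spread between these libraries, which may be technical. The sequences of the hairpins were not used here.

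SOAT1, also called ACAT1, is an enzyme of the endoplasmic reticulum that joins free cholesterol to a fatty acid. The resulting cholesteryl esters are stored in lipid droplets, and SOAT2 is the second enzyme with this activity. Free cholesterol in the endoplasmic reticulum holds the transcription factor SREBP2 inactive, whereas a low level releases it to switch on the genes of cholesterol synthesis and uptake. Oxysterols activate the nuclear receptor LXR, whose targets include the cholesterol exporter Abca1. A separate system, that of type I interferon, runs through the receptor IFNAR and factors that include STAT2 and IRF9. These bind the interferon-stimulated response element (ISRE) in the promoters of antiviral genes. Sensors of foreign RNA in the cytosol can set this system off.

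Levels are FPKM, in which a gene's fragments are divided by the length of its transcript and by the size of the library, so that genes can be compared per length. Group levels are means ± SD over 3 libraries, and fold changes are differences of log2(FPKM + 1) with their standard error (SE), so that changes of low genes are understated. A gene was called when its adjusted p from limma was under 0.05. The FPKM of a library summed to between 321496 and 330500, and 11159 to 11213 genes reached 1 FPKM in the shLucif libraries against 11437 to 11481 in the sh3 libraries. Read totals are unknown, and the smallest steps of the FPKM put the relative depth of the 12 hairpin libraries between 0.883 and 1.165. Across the genes tested, Pearson's r of the log2 levels was 0.99 to 0.992 within shLucif, 0.989 to 0.99 within sh3 and 0.961 to 0.971 between them, with sh3 replicate 3 nearest to the control (0.969 to 0.971). As for the line itself, the intestinal epithelial markers Epcam and Cdh1 had mean levels of 0 and 0.00895 FPKM with shLucif, and 9 of 12 such markers were below 1 FPKM in all 6 libraries. Of 14 leukocyte markers 12 were below 1 FPKM, as were 10 of 10 endothelial and 10 of 12 hepatocyte markers.

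The targeted gene was measured first. Soat1 (ENSMUSG00000026600, chromosome 1, 156424525 to 156474331 in GRCm38) stood at 19.7, 19.8 and 20.2 FPKM in the shLucif libraries and 2.52, 2.54 and 2.71 FPKM in the sh3 libraries. The groups were far apart, and the sh3 level was 13.0% of the control (log2 fold change -2.54, SE 0.0413, limma adjusted p = 4.35e-11). Its level was 3.27 ± 0.0350 FPKM with sh1 and 3.47 ± 0.0741 FPKM with sh2, so sh3 left the least Soat1 mRNA of the 3 hairpins (log2 difference -0.28, limma adjusted p = 4.12e-05 against the mean of sh1 and sh2). Soat2 measured 58.7, 61.9 and 59.2 FPKM in the shLucif libraries and 53.4, 58.4 and 64.6 FPKM in the sh3 libraries. These ranges overlapped and the gene was not called (log2 fold change -0.03, SE 0.0744, limma adjusted p = 0.754). The receptor gene Gpr132, which the study's title names, had mean levels of 0.160 FPKM with shLucif and 0.471 with sh3, and Cyp11a1, whose product makes a steroid precursor from cholesterol, 0.00403 and 0.0361. Both were too low to be tested.

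Of 11832 genes tested, limma called 6217 between sh3 and shLucif, a share of 52.5%. The called genes were 3656 higher (30.9% of those tested) and 2561 lower (21.6%), and the median log2 fold change over all genes was 0.04. Most changes were small, with 313 called genes at 2-fold or more, 182 higher and 131 lower. The 3 libraries of each group did not overlap for 7311 genes (61.8%). Against the mean of sh1 and sh2, 7117 genes were called (60.2%), 4196 higher (35.5%) and 2921 lower (24.7%), with 401 at 2-fold or more and a median over all genes of 0.06. This second contrast uses the same sh3 libraries as the first. By gene class, 5681 of 10142 protein-coding genes (56%), 322 of 965 pseudogenes (33.4%) and 21 of 112 small nucleolar RNA genes (18.8%) were called against shLucif, and the 21 small nucleolar RNA genes were all higher. Reads of pseudogenes can be shared with their parent genes, so their values are uncertain. The balance of directions depended on the scaling, since higher calls made up 58.8% as deposited, 49.5% after quantile normalization (3088 higher, 3148 lower) and 46.6% with the libraries scaled to the same median (2959 higher, 3393 lower). The median over all genes moved by less than 0.1 under these scalings, to -0.01 and -0.02, so changes of that size have no firm direction.

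**Figure D1:**
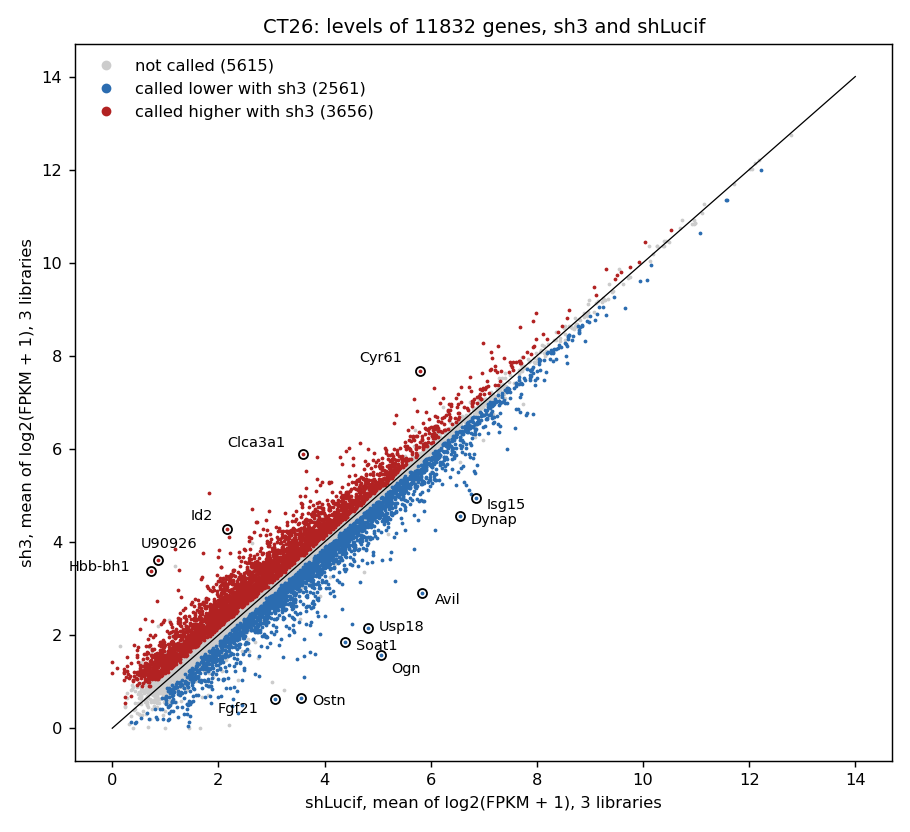
Mean log2(FPKM + 1) of 11832 genes over the 3 shLucif libraries (x axis) and the 3 sh3 libraries (y axis), with genes called higher in red (3656), lower in blue (2561) and not called in grey. Points on the line have equal levels, and Ogn, Avil, Ostn, Usp18 and Soat1 lie among those farthest below it while U90926, Hbb-bh1 and Clca3a1 lie among those farthest above.

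**Figure D2:**
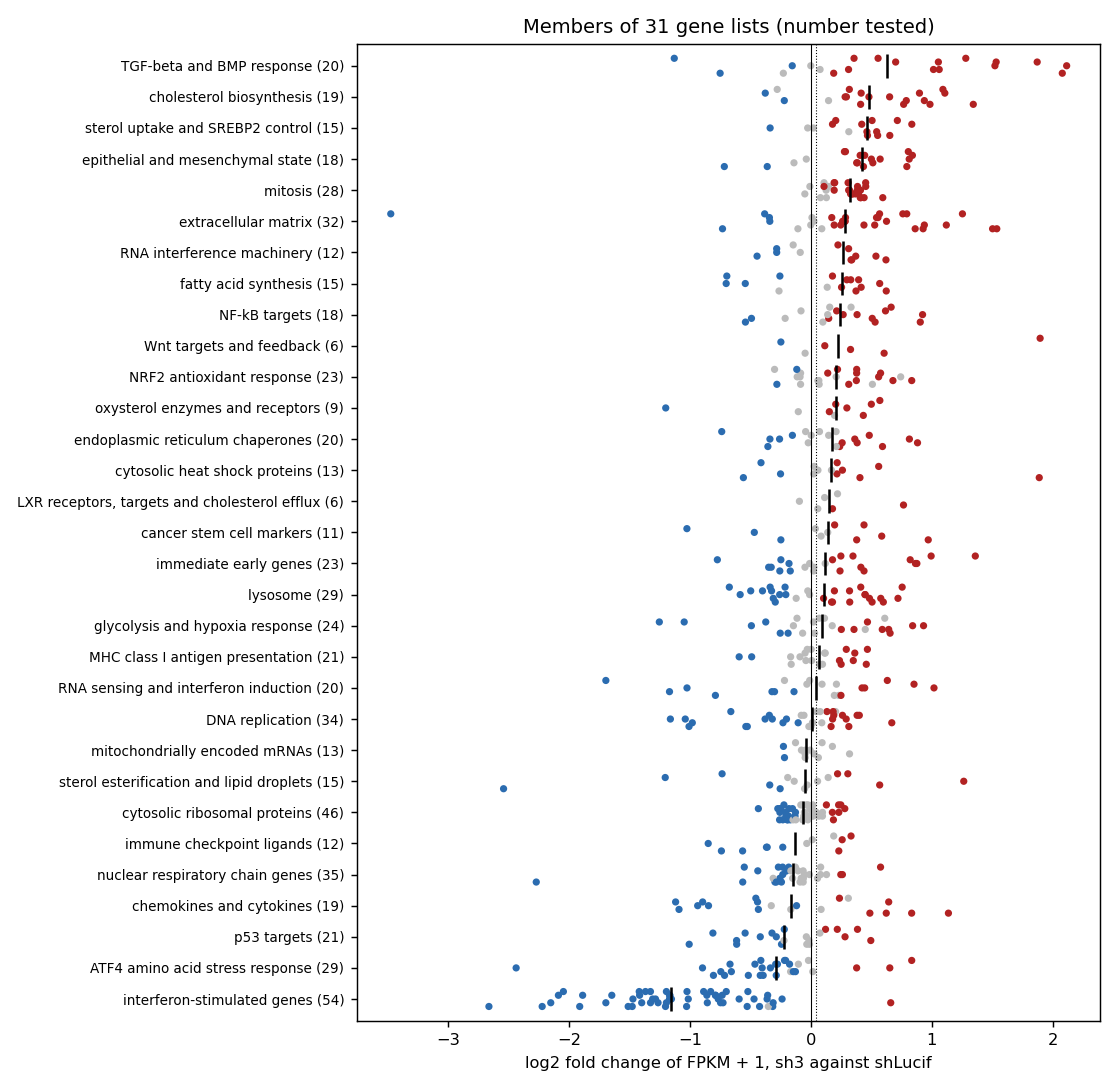
Log2 fold change of FPKM + 1, sh3 against shLucif (x axis), for the tested members of 31 gene lists (y axis, number tested in brackets); each point is a gene, red where called higher, blue where called lower and grey where not called. The black bar is the list's median and the dotted line the median of all genes, and the interferon-stimulated genes have the lowest median (-1.16) and the TGF-beta and BMP response the highest (0.63).

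Interferon-stimulated genes were lower with sh3 nearly throughout. All 54 genes of the list were tested, and 52 of them fell (96.3%, beside 21.6% of all genes), 1 rose and 1, Irf1, was not called (-0.35, adjusted p = 0.191). The list's median log2 fold change was -1.16, where that of all genes was 0.04. Against the mean of sh1 and sh2 the same counts were 52 lower and 1 higher, with a median of -2.25 beside 0.06 for all genes. The genes that fell most encode antiviral effectors and a brake on the pathway. They are shown first by their promoters, because the proximal promoters of many of them hold the ISRE, here searched for as GAAA, 2 bases of any kind and GAAA again, on both strands.

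The promoter windows of the interferon-stimulated genes Isg15, Ifit1, Ifit3 and Rsad2 follow, from RefSeq on GRCm38.p6, from 250 bases before to 50 bases after the annotated start, 5′ to 3′ on the gene's strand, with matches to that motif, on the strand shown or on the other, in capitals.
Isg15, chr4:156200769-156201068, minus strand: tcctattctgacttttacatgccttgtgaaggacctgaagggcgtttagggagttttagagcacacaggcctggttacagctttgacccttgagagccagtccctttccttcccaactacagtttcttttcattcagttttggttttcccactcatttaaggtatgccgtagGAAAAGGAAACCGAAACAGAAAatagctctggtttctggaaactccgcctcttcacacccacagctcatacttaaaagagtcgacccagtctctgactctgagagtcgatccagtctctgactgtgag
Ifit1, chr19:34640639-34640938, plus strand: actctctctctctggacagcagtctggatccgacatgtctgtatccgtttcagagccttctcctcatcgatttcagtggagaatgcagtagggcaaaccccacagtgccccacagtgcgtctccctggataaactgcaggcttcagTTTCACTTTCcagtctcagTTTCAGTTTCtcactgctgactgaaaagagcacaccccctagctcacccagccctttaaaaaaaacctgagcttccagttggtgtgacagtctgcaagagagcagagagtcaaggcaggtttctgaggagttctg
Ifit3, chr19:34583279-34583578, plus strand: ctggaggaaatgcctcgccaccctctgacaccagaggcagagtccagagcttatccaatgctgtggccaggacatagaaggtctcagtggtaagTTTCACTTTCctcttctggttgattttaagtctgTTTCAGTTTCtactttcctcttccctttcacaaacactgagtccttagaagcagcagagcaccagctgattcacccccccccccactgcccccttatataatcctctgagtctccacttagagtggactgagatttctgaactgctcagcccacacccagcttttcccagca
Rsad2, chr12:26456403-26456702, minus strand: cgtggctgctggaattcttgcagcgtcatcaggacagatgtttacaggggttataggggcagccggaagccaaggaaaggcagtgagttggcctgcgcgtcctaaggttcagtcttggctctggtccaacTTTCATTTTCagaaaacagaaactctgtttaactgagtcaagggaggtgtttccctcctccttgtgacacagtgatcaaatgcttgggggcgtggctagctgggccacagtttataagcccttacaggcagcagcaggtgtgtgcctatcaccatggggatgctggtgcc

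The Isg15 window held 3 matches that overlap each other, Ifit1 and Ifit3 held 2 each and Rsad2 held 1. Of the 54 list members 39 had a promoter window, and 20 of these (51.3%) held the motif, against 3.95% of the 8193 tested genes with a window and 3.44% of all 32851 windows. Of the 20 members with a match 20 fell, with a median log2 fold change of -1.23. Of the 19 members without one 17 fell and 1 rose, with a median of -0.75. The list was made of known interferon-stimulated genes, so a high share with the motif was likely beforehand and is not a result of sh3. A match is a run of letters and not a measured binding site.

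Usp18 encodes the protease that strips ISG15 from proteins and restrains the interferon receptor, and it had the lowest fold change of the list (ENSMUSG00000030107, chromosome 6, 121245906 to 121270917). It stood at 26.8, 27.3 and 28.0 FPKM in the shLucif libraries and 2.98, 3.09 and 4.53 FPKM in the sh3 libraries. Every sh3 library lay far below every control library (log2 fold change -2.66, SE 0.104, limma adjusted p = 1.65e-08). With the other hairpins its level was 102 ± 5.06 FPKM with sh1 and 111 ± 6.06 FPKM with sh2, on the other side of the same shLucif libraries, and sh3 differed from their mean (log2 difference -4.58, limma adjusted p = 3.72e-11). Isg15 encodes the ubiquitin-like protein that Usp18 removes, and it was among the more abundant transcripts of the list, at 116, 116 and 111 FPKM in the shLucif libraries and 27.7, 27.1 and 34.7 FPKM in the sh3 libraries. The groups did not overlap (log2 fold change -1.91, SE 0.0811, limma adjusted p = 3.2e-08), and its level was 392 ± 20.1 FPKM with sh1 and 412 ± 20.2 FPKM with sh2. Ifit1, whose product binds viral RNA ends, fell from 39.0 ± 0.368 to 8.13 ± 1.89 FPKM (log2 fold change -2.15, SE 0.115, limma adjusted p = 1.59e-07). Its partner gene Ifit3 fell from 12.2 ± 0.0557 to 2.16 ± 0.687 FPKM (-2.09, adjusted p = 5.51e-07). Rsad2, which encodes the antiviral enzyme viperin, was at 10.4, 11.2 and 12.0 FPKM in the shLucif libraries and 1.79, 1.63 and 2.47 FPKM in the sh3 libraries. No sh3 library reached the control range (-2.05, adjusted p = 1.58e-07). Ifi44 fell from 13.1 ± 0.977 to 2.03 ± 0.436 FPKM (-2.22, adjusted p = 6.25e-08), and Oasl2, of the oligoadenylate synthetase family, from 14.2 ± 1.08 to 3.33 ± 1.90 FPKM (-1.89, adjusted p = 0.000101).

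Among the members of the interferon-stimulated list that fell were factors that carry the interferon signal. Irf7, the factor that amplifies interferon production, was at 11.2, 11.4 and 11.3 FPKM in the shLucif libraries and 2.70, 2.51 and 3.19 FPKM in the sh3 libraries (log2 fold change -1.70, SE 0.0736, limma adjusted p = 3.65e-08). Irf9 fell from 10.1 ± 0.118 to 4.53 ± 0.559 FPKM (-1.01, adjusted p = 6.63e-07). Both genes had separate ranges in the 2 groups, and Stat2 fell by a log2 fold change of -0.83. The list of RNA sensing and interferon induction shares Irf7, Ifih1, Dhx58 and Ddx58 with that list, so these genes are counted in both. Of its 24 matched genes 20 were tested, of which 6 rose (30%, near the 30.9% of all genes) and 7 fell (35%, beside 21.6%). Its median of 0.04 changed sign under both other scalings. The cytosolic RNA sensors Ifih1 (MDA5), Dhx58 (LGP2) and Ddx58 (RIG-I) fell by log2 fold changes of -1.17, -1.02 and -0.79. Among the members that rose were the receptor subunit gene Ifnar1 (from 3.11 ± 0.445 to 7.33 ± 1.07 FPKM, 1.02, adjusted p = 4.23e-05) and the adaptor gene Mavs (from 12.5 ± 0.951 to 23.5 ± 3.44 FPKM, 0.85, adjusted p = 2e-05). The interferon gamma receptor gene Ifngr1 (0.63) and the kinase gene Ikbke (0.45) rose as well. Ifnb1, which encodes interferon beta itself, was near the limit of measurement at 0.216, 0.408 and 0.442 FPKM in the shLucif libraries and 0, 0.0129 and 0.249 FPKM in the sh3 libraries. Those ranges overlapped, and its lower call (adjusted p = 0.0471) was lost in 7 of 15 alternative settings, among them those without shLucif replicate 2 or 3 or sh3 replicate 1 or 2 (adjusted p = 0.118 to 0.147).

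Some further members are given singly, among them those that went another way. Lgals3bp, which encodes a secreted galectin-binding glycoprotein, was the 1 member to rise, from 26.4 ± 1.39 to 43.1 ± 9.81 FPKM (log2 fold change 0.66, SE 0.130, limma adjusted p = 0.00136), while its level was 111 ± 4.64 FPKM with sh1 and 110.1 ± 5.90 FPKM with sh2. Ifi27, singled out after its values were seen, fell from 64.2 ± 1.74 to 44.5 ± 3.79 FPKM (-0.52, adjusted p = 5.53e-05). Its level was 22.7 ± 1.12 FPKM with sh1 and 22 ± 1.44 FPKM with sh2, so that it is the 1 member higher with sh3 than with the mean of sh1 and sh2 (log2 difference 0.96, limma adjusted p = 1.23e-07). Zbp1, which encodes a sensor of Z-form nucleic acids, fell from 5.80 ± 0.236 to 1.18 ± 0.210 FPKM (-1.65, adjusted p = 2.96e-07). Among the largest families, the guanylate-binding protein genes were 6 lower of 6 tested (median -0.66) and the immunity-related GTPase genes 6 lower of 6 (median -1.31), counts over families picked after their values were seen. Gbp2, Gbp3, Gbp7, Igtp, Irgm1 and Iigp1 are also members of the list, so these counts are not separate from it. After quantile normalization 5 of the 6 guanylate-binding protein genes were lower. The lower count of the list stayed between 50 and 52 in all 15 alternative settings. Near-identical neighbours such as Ifit3 with Ifit3b and Oas1a with Oas1g can exchange reads, so their single values are uncertain.

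**Figure D3:**
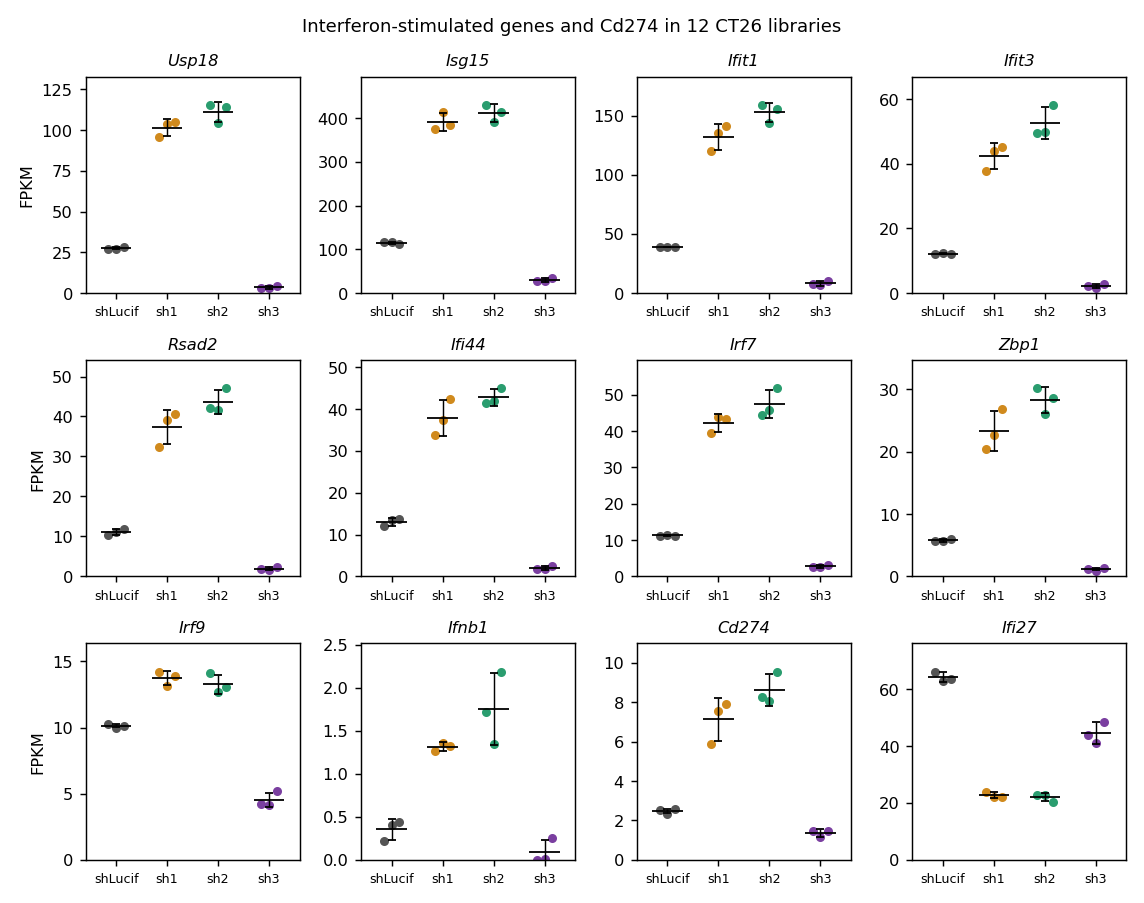
FPKM (y axis, from 0, its own scale for each gene) of interferon-stimulated genes, Ifnb1 and Cd274 in the 12 CT26 hairpin libraries; each point is a library, the long bar the group mean and the whiskers 1 SD over 3 libraries. The sh3 points lie below the shLucif points for Usp18, Isg15 and Rsad2 while sh1 and sh2 lie above them, and Ifi27 has sh3 between shLucif and the other 2 hairpins.

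Genes of antigen presentation moved far less. Of 21 MHC class I pathway genes tested, 7 rose (33.3%, near the 30.9% of all genes) and 2 fell (9.52%, beside 21.6%) with sh3. Their median of 0.07 lay beside the 0.04 of all genes. It turned to -0.01, with 4 lower calls, when the libraries were scaled to the same median. The heavy chain genes H2-D1 and H2-T22 rose from 122 ± 2.28 to 155 ± 5.91 FPKM (0.35, adjusted p = 8.07e-06) and from 7.65 ± 1.12 to 10.9 ± 0.781 FPKM (0.47, adjusted p = 0.000911), and the chaperone gene Calr and the loading factor gene Tapbpl rose by 0.36 and 0.46. The peptide transporter gene Tap1 fell from 6.26 ± 0.898 to 3.81 ± 0.511 FPKM (-0.59, adjusted p = 0.000329), as did the MHC class I transactivator gene Nlrc5 (-0.49, adjusted p = 0.000544). B2m, the shared light chain, was at 688 ± 10.7 FPKM with shLucif and 669 ± 20.4 with sh3 and was not called (-0.04, adjusted p = 0.434). Set against the mean of sh1 and sh2, 16 of the 21 were lower and 1 higher with sh3 (median -0.37). H2 genes resemble one another, and reads may be split among them.

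Among immune checkpoint ligands 12 of 17 matched genes were tested, of which 3 rose (25%, beside 30.9% of all genes) and 6 fell (50%, beside 21.6%). Their median was -0.13. Cd274, which encodes PD-L1, measured 2.55, 2.34 and 2.56 FPKM in the shLucif libraries and 1.46, 1.13 and 1.48 FPKM in the sh3 libraries. The sh3 range lay wholly below the control range (log2 fold change -0.56, SE 0.102, limma adjusted p = 0.000745), whereas the level was 7.12 ± 1.09 FPKM with sh1 and 8.62 ± 0.811 FPKM with sh2, 2 groups above the same controls (log2 difference -1.90, limma adjusted p = 1.86e-08 for sh3 against their mean). Vtcn1, which encodes B7-H4, fell from 2.42 ± 0.155 to 0.907 ± 0.238 FPKM (-0.85, adjusted p = 1.73e-05), and Pvr, the poliovirus receptor and ligand of TIGIT, from 66.5 ± 2.09 to 39.5 ± 4.30 FPKM (-0.74, adjusted p = 4.29e-06). The galectin gene Lgals3 fell by 0.37 and Lgals9 rose by 0.33 on the log2 scale. The higher call of Hmgb1 (0.26) was lost in 6 settings, among them those without shLucif replicate 3 or sh3 replicate 1 or 2 (adjusted p = 0.0691 to 0.122), and that of Ceacam1 (0.23) was lost in 9 settings, among them those without shLucif replicate 1, 2 or 3 or sh3 replicate 1 or 2 (adjusted p = 0.0509 to 0.111). Only 1 member of the list was a higher call without shLucif replicate 3, sh3 replicate 1 or sh3 replicate 2, and only 1 with the libraries scaled to the same median.

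Chemokine and cytokine genes were split, with 6 higher and 9 lower among 19 tested of 37 (median -0.17). The higher share was 31.6%, near the 30.9% of all genes, and the lower share 47.4% beside 21.6%. Il11, an IL-6 family cytokine gene, measured 17.2, 18.5 and 19.2 FPKM in the shLucif libraries and 6.99, 6.63 and 10.5 FPKM in the sh3 libraries. The groups were apart (log2 fold change -1.12, SE 0.153, limma adjusted p = 0.000103), and its level was 5.55 ± 0.492 FPKM with sh1 and 5.69 ± 1.09 FPKM with sh2. The chemokine gene Ccl5 fell from 13.6 ± 0.663 to 5.86 ± 0.635 FPKM (-1.09, adjusted p = 5.39e-06), Il6 from 1.70 ± 0.212 to 0.420 ± 0.218 FPKM (-0.94, adjusted p = 3.43e-05) and the growth factor gene Csf2 from 1.67 ± 0.315 to 0.443 ± 0.259 FPKM (-0.89, adjusted p = 0.000397). Csf1, the macrophage growth factor gene, fell from 83.9 ± 3.25 to 46.2 ± 3.08 FPKM (-0.85, adjusted p = 1.42e-06). Tgfb3 rose from 2.70 ± 0.0668 to 7.18 ± 0.853 FPKM (1.14, adjusted p = 2.64e-06), Il34 from 3.29 ± 0.0845 to 6.67 ± 0.780 FPKM (0.83, adjusted p = 2.24e-05) and the chemokine genes Ccl9 and Ccl2 by 0.64 and 0.62. For NF-kB targets, 10 of 18 tested rose (55.6%, beside 30.9% of all genes) and 2 fell (11.1%, beside 21.6%), with a median of 0.24. With the libraries scaled to the same median, 9 were higher and 4 lower. Some feedback inhibitors rose: Nfkbia, which encodes the inhibitor IkB-alpha, from 7.95 ± 0.490 to 15.7 ± 0.713 FPKM (0.90, adjusted p = 1.82e-07), Nfkbie from 1.33 ± 0.348 to 3.40 ± 0.387 FPKM (0.92, adjusted p = 0.000131) and Tnfaip3, the deubiquitinase A20, from 4.42 ± 1.33 to 7.40 ± 0.314 FPKM (0.66, adjusted p = 0.00347, and 0.44 without shLucif replicate 1). The adhesion receptor gene Vcam1 rose by 0.62, while Tnfaip2 (-0.54) and another inhibitor gene, Nfkbib (-0.49), fell. Beside these counts, the summed level of 14 leukocyte markers was 23.6 to 23.9 FPKM with shLucif and 42.0 to 47.0 with sh3, most of it the endotoxin co-receptor gene Cd14 (from 16.5 ± 0.148 to 38.2 ± 2.55 FPKM, 1.16, adjusted p = 1.39e-07), with Adgre1, Cd3e, Cd8a and Ncr1 at 0. Cd68, a macrophage gene and the 1 other marker tested, fell from 6.33 ± 0.0710 to 4.96 ± 0.0923 FPKM (-0.30, adjusted p = 0.00442). The part of this in the result was not tested.

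Sterol synthesis genes were mostly higher with sh3. Of 19 cholesterol biosynthesis genes tested (of 21), 15 rose (78.9%, beside 30.9% of all genes) and 2 fell (10.5%, beside 21.6%). Their median log2 fold change was 0.48. The largest rise was that of Acat2, the cytosolic thiolase that condenses acetyl-CoA and that is distinct from Soat2 despite a shared older name. Acat2 measured 6.74, 6.66 and 6.31 FPKM in the shLucif libraries and 18.4, 18.5 and 17.7 FPKM in the sh3 libraries. The sh3 libraries lay far above the controls (log2 fold change 1.34, SE 0.144, limma adjusted p = 1.8e-05), and its level was 6.34 ± 1.58 FPKM with sh1 and 7.33 ± 1.51 FPKM with sh2 (log2 difference 1.31, limma adjusted p = 4.47e-06 for sh3 against their mean). The mevalonate genes Mvk (from 3.88 ± 0.337 to 9.57 ± 1.57 FPKM, 1.11, adjusted p = 9.72e-05), Mvd (from 2.92 ± 0.315 to 6.86 ± 1.57 FPKM, 0.98, adjusted p = 8.94e-05) and Idi1 (0.94) rose, as did the late-step gene Nsdhl (from 6.58 ± 0.558 to 15.2 ± 1.24 FPKM, 1.09, adjusted p = 3.69e-06). Dhcr7 (0.90), Hmgcs1 (0.79), Cyp51 (0.65) and Sqle (0.41), named for their place in the pathway, rose as well. Lss, the lanosterol synthase gene, fell by 0.22 and Ggps1, at a branch toward isoprenoids, by 0.38 on the log2 scale. Against the mean of sh1 and sh2, 11 members were higher and 4 lower with sh3 (median 0.45).

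Uptake and control genes of SREBP2 had 11 higher (73.3%, beside 30.9% of all genes) and 1 lower (6.67%, beside 21.6%) of 15 tested (median 0.46). Insig1, which encodes a brake on SREBP processing, rose from 13.2 ± 1.61 to 24.4 ± 3.29 FPKM (0.83, adjusted p = 3.75e-05). Scarb1, a receptor for high-density lipoprotein, rose from 12.3 ± 0.0892 to 20.9 ± 1.42 FPKM (0.72, adjusted p = 1.67e-06) and Vldlr from 18.8 ± 0.713 to 30.1 ± 0.195 FPKM (0.65, adjusted p = 8.81e-07). Srebf2, the gene of SREBP2, was at 17.4, 22.1 and 17.1 FPKM in the shLucif libraries and 30.6, 28.2 and 21.2 FPKM in the sh3 libraries. These ranges overlapped through the third sh3 library, and the call (log2 fold change 0.47, SE 0.149, limma adjusted p = 0.021) was lost in 5 of 15 alternative settings, among them those without shLucif replicate 1 or 3 or sh3 replicate 1 or 2 (adjusted p = 0.0693 to 0.0854). Npc1, which exports cholesterol from lysosomes, fell from 5.83 ± 0.228 to 4.41 ± 0.279 FPKM (-0.34, adjusted p = 0.00932).

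Ester storage and efflux genes were mixed. In the list of sterol esterification and lipid droplets 15 of 26 genes were tested (median -0.05). Of these 4 were higher (26.7%, near the 30.9% of all genes) and 5 lower, Soat1 included (33.3%, beside 21.6%). Plin2, the main coat protein gene of lipid droplets, measured 122, 112 and 114 FPKM with shLucif and 46.5, 48.5 and 54.5 FPKM with sh3. The sh3 libraries were well below (log2 fold change -1.2, SE 0.0689, limma adjusted p = 2.2e-07), and the level was 130.1 ± 5.53 FPKM with sh1 and 128 ± 9.55 FPKM with sh2 (log2 difference -1.35, limma adjusted p = 1.28e-08 for sh3 against their mean). Abhd5, the activator of the lipase ATGL, fell from 7.61 ± 0.452 to 4.18 ± 0.279 FPKM (-0.73, adjusted p = 8.93e-06), the droplet-forming gene Fitm2 by 0.34 and the ester hydrolase gene Nceh1 by 0.25 on the log2 scale. The carboxylesterase gene Ces1g rose from 2.46 ± 0.0870 to 7.35 ± 1.02 FPKM (1.26, adjusted p = 1.49e-06), the lysosomal lipase gene Lipa from 1.68 ± 0.0528 to 3.0 ± 0.547 FPKM (0.57, adjusted p = 0.000378) and the droplet coat gene Plin3 by 0.31. The higher call of Dgat2 (0.22, and 0.13 without sh3 replicate 3) was lost in 9 settings, among them those without shLucif replicate 1, 2 or 3 or sh3 replicate 3 (adjusted p = 0.0668 to 0.117). Of 6 tested genes of LXR and cholesterol efflux (of 14), 2 rose (33.3%, near the 30.9% of all genes) and 0 fell. Abca1 was at 3.37, 3.74 and 3.82 FPKM in the shLucif libraries and 7.38, 6.94 and 6.38 FPKM in the sh3 libraries. It had no overlap (log2 fold change 0.77, SE 0.0681, limma adjusted p = 4.73e-06), with 6.16 ± 0.524 FPKM with sh1 and 5.74 ± 0.187 FPKM with sh2. The higher call of Abca7 (0.18) was lost in 5 settings, among them those without shLucif replicate 3 or sh3 replicate 1 or 2 (adjusted p = 0.0523 to 0.0591), which leaves 1 of the list. Abcg1, Apoe and the LXR-alpha gene Nr1h3 were too low to be tested.

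Fatty acid synthesis genes had 9 higher (60%, beside 30.9% of all genes) and 4 lower (26.7%, near the 21.6% of all genes) of 15 tested (median 0.25). The desaturase gene Fads2 rose from 32.2 ± 3.19 to 50.03 ± 2.83 FPKM (0.62, adjusted p = 0.000127), and Acacb, Acss2 and Elovl6 rose by 0.57, 0.42 and 0.39. Acacb reached 1 FPKM in the sh3 libraries only, and Acss2 would not have been tested without them. The malic enzyme gene Me1 fell from 22.4 ± 1.21 to 13.4 ± 1.08 FPKM (-0.70, adjusted p = 3.9e-06), Gpam from 4.81 ± 0.676 to 2.60 ± 0.489 FPKM (-0.69, adjusted p = 0.00215), Elovl5 from 22.4 ± 0.324 to 15.1 ± 0.588 FPKM (-0.54, adjusted p = 2.87e-06) and Scd1 by 0.26 on the log2 scale. Among oxysterol enzymes and receptors 9 of 19 were tested, most of them genes of the oxysterol-binding protein family. In all 6 were higher (66.7%, beside 30.9% of all genes) and 1 lower (11.1%, beside 21.6%), with a median of 0.21 and 4 higher under either other scaling. The lower one was Osbpl2, at 57.3, 59.1 and 56.1 FPKM in the shLucif libraries and 22.4, 22.8 and 28.6 FPKM in the sh3 libraries. Its groups were apart (log2 fold change -1.2, SE 0.0737, limma adjusted p = 3.54e-07) while the level was 55.1 ± 1.05 FPKM with sh1 and 52.7 ± 0.878 FPKM with sh2 (log2 difference -1.11, limma adjusted p = 1.05e-07 for sh3 against their mean). Osbpl5 (0.57), Osbpl3 (0.50), Osbpl6 (0.43) and Osbpl9 (0.30) rose. The oxysterol-making genes Ch25h, Cyp27a1 and Cyp46a1 were too low to be tested.

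**Figure D4:**
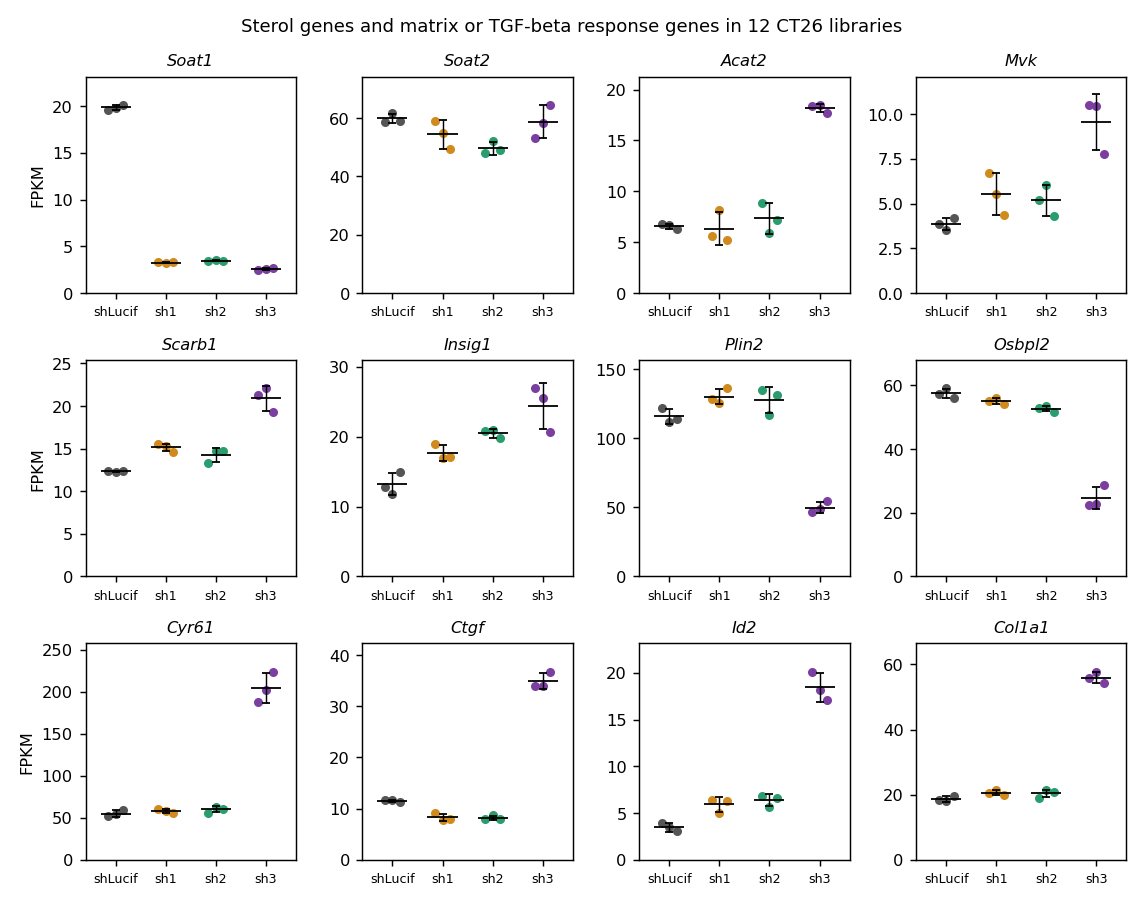
FPKM (y axis, from 0, its own scale for each gene) of sterol genes (top and middle rows) and of TGF-beta response or matrix genes (bottom row) in the 12 CT26 hairpin libraries; each point is a library, the long bar the group mean and the whiskers 1 SD over 3 libraries. Soat1 is low with all 3 hairpins, whereas for Acat2, Plin2, Osbpl2, Cyr61 and Col1a1 the sh3 libraries stand apart from the other 3 groups.

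Genes that respond to TGF-beta, BMP and mechanical signals had the highest median of the lists, 0.63. Of 20 tested (of 26), 14 rose (70%, beside 30.9% of all genes) and 3 fell (15%, beside 21.6%). Against the mean of sh1 and sh2, 14 were higher and 4 lower (median 0.47). Cyr61 (Ccn1), a secreted matrix-binding protein gene and a textbook target of YAP and TEAD, lies on chromosome 3 (145646976 to 145649981). Its level was 51.5, 54.7 and 58.9 FPKM in the shLucif libraries and 187, 202 and 224 FPKM in the sh3 libraries. All sh3 libraries were above all controls (log2 fold change 1.87, SE 0.0715, limma adjusted p = 1.63e-08), and the level was 58.0 ± 2.62 FPKM with sh1 and 60.0 ± 3.54 FPKM with sh2. Ctgf (Ccn2), its close relative, measured 11.6, 11.6 and 11.2 FPKM in the shLucif libraries and 34.0, 34.0 and 36.8 FPKM in the sh3 libraries. That is 3.04 times the control mean (log2 fold change 1.52, SE 0.0590, limma adjusted p = 1.63e-08), with 8.29 ± 0.718 FPKM with sh1 and 8.23 ± 0.384 FPKM with sh2 (log2 difference 1.96, limma adjusted p = 3.01e-10 for sh3 against their mean). Id2, an inhibitor of basic helix-loop-helix factors and a BMP target, was at 3.99, 3.46 and 3.05 FPKM in the shLucif libraries and 20.1, 18.2 and 17.1 FPKM in the sh3 libraries. It had the largest fold change of the list (log2 fold change 2.11, SE 0.104, limma adjusted p = 8.54e-08), and Id3 (from 5.41 ± 0.0674 to 17.8 ± 3.54 FPKM, 1.53, adjusted p = 1.33e-06) and Id1 (1.01) rose with it. Cd109, a TGF-beta co-receptor gene, rose from 5.21 ± 0.0715 to 25.2 ± 1.01 FPKM (log2 fold change 2.08, SE 0.0476, limma adjusted p = 5.87e-10), and the receptor gene Tgfbr2 by 0.70. The activin subunit gene Inhba fell from 13.8 ± 0.665 to 5.76 ± 0.611 FPKM (-1.13, adjusted p = 2.8e-06), the BMP antagonist gene Grem1 from 99.2 ± 4.14 to 59.3 ± 12.1 FPKM (-0.75, adjusted p = 0.000127) and Ltbp1 by 0.15 on the log2 scale.

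In the extracellular matrix list 32 of 50 genes were tested (median 0.28). Of these 22 rose (68.8%, beside 30.9% of all genes) and 5 fell (15.6%, beside 21.6%). Col1a1, a chain of type I collagen, measured 18.2, 18.0 and 19.6 FPKM in the shLucif libraries and 55.8, 57.8 and 54.3 FPKM in the sh3 libraries. Its sh3 level was 3.0 times the control (log2 fold change 1.54, SE 0.0517, limma adjusted p = 7.45e-09), and 20.6 ± 0.832 FPKM with sh1 and 20.4 ± 1.17 FPKM with sh2. Fbln2 rose from 13.5 ± 1.51 to 40.1 ± 3.26 FPKM (1.5, adjusted p = 6.86e-07), the basement membrane gene Nid1 from 13.4 ± 0.728 to 33.2 ± 0.372 FPKM (1.25, adjusted p = 7.6e-08) and Col6a1 from 3.44 ± 0.424 to 8.63 ± 0.329 FPKM (1.12, adjusted p = 1.49e-06). Among those that fell, Sparc went from 76.3 ± 2.99 to 45.6 ± 2.2 FPKM (-0.73, adjusted p = 1.08e-06) and Col18a1 and Thbs2 by 0.34 and 0.34 on the log2 scale, while the lower call of Mmp3 (-0.38) was lost in 5 settings, among them those without sh3 replicate 1 or 2 (adjusted p = 0.0919 to 0.106). Ogn, the small leucine-rich proteoglycan osteoglycin, had the lowest fold change of all genes named here (ENSMUSG00000021390, chromosome 13, 49608046 to 49624501). It stood at 31.3, 33.8 and 31.7 FPKM in the shLucif libraries and 1.75, 2.16 and 2.10 FPKM in the sh3 libraries. The sh3 level was 6.20% of the control (log2 fold change -3.47, SE 0.0870, limma adjusted p = 9.58e-10), and it was 7.36 ± 1.13 FPKM with sh1 and 8.97 ± 0.268 FPKM with sh2. The summed level of 10 fibroblast markers was 37.7 to 39.1 FPKM with shLucif and 75.3 to 79.3 with sh3, most of it Col1a1, with Thy1 at 0 and 6 of 10 below 1 FPKM. Its part in these results was not tested, and in bulk RNA more cells of a type and more RNA per cell cannot be told apart.

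Genes of epithelial and mesenchymal state mostly rose. The list of epithelial and mesenchymal state had 18 of 35 genes tested, many epithelial members being too low (median 0.42). Of those tested 14 rose (77.8%, beside 30.9% of all genes) and 2 fell (11.1%, beside 21.6%). Vimentin (Vim) rose from 244 ± 5.31 to 428 ± 47.6 FPKM (0.81, adjusted p = 2.66e-06), N-cadherin (Cdh2) from 9.41 ± 0.981 to 17.6 ± 0.139 FPKM (0.84, adjusted p = 1.24e-06), the integrin gene Itgb1 from 142 ± 1.30 to 247 ± 3.62 FPKM (0.79, adjusted p = 4.23e-08) and the junction gene Jup, plakoglobin, from 1.92 ± 0.136 to 4.15 ± 0.387 FPKM (0.81, adjusted p = 1.27e-05). Krt18 fell from 2.32 ± 0.110 to 1.59 ± 0.0905 FPKM (-0.36, adjusted p = 0.00305), and the lower call of Twist2 (-0.72) was lost in 4 settings, among them those without shLucif replicate 2 or sh3 replicate 1 or 2 (adjusted p = 0.0516 to 0.0753), which leaves Krt18. Of 3 intestinal markers tested, Krt20 and Cdx2 rose and Krt18 fell. The intestinal marker Krt20 rose from 21.1 ± 0.342 to 41.9 ± 2.14 FPKM (0.95, adjusted p = 2.17e-05) and carried most of the summed level of the 12 intestinal markers, 24.7 to 25.0 FPKM with shLucif and 43.5 to 48.1 with sh3, with Fabp2 at 0. Its part in these results was not tested. The integrin genes Itgb4 (from 1.46 ± 0.107 to 6.01 ± 0.219 FPKM, 1.51, adjusted p = 1.71e-07) and Itga3 (from 18.5 ± 0.466 to 32.5 ± 0.953 FPKM, 0.78, adjusted p = 1.65e-07), chosen after their values were seen, rose as well.

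Of 11 cancer stem cell markers tested (of 22), 5 rose (45.5%, beside 30.9% of all genes) and 3 fell (27.3%, near the 21.6% of all genes), with a median of 0.14. Nestin (Nes) rose from 13.9 ± 0.795 to 28.2 ± 1.29 FPKM (0.97, adjusted p = 4.99e-07), the Polycomb gene Bmi1 from 24.7 ± 0.949 to 37.6 ± 0.668 FPKM (0.59, adjusted p = 1.08e-05), and Klf4 and the hyaluronan receptor gene Cd44 by 0.44 and 0.38. Sox9 fell from 9.55 ± 0.543 to 4.19 ± 0.391 FPKM (-1.02, adjusted p = 1.03e-05), Sox2 from 25.6 ± 0.275 to 18.3 ± 0.946 FPKM (-0.47, adjusted p = 4.83e-05) and Myc by 0.25 on the log2 scale. Prom1, Lgr5 and Epcam were too low to be tested. Only 6 of 20 Wnt targets and feedback genes were tested, of which 4 rose (66.7%, beside 30.9% of all genes) and 1, Myc, fell (16.7%, beside 21.6%). Dkk2, a secreted modulator of Wnt signalling, rose from 3.6 ± 0.0940 to 16.2 ± 1.94 FPKM (log2 fold change 1.90, SE 0.0779, limma adjusted p = 2.49e-08), with 11.4 ± 0.731 FPKM with sh1 and 11.5 ± 0.710 FPKM with sh2. Apcdd1 and Lef1 rose by 0.61 and 0.33, and the higher call of Ccnd1 (0.12) was lost in 9 settings, among them those without shLucif replicate 1 or 2 or sh3 replicate 1 or 2 (adjusted p = 0.0713 to 0.174).

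The ATF4 branch of the stress response, which raises amino acid synthesis and transport when translation is held back, was lower with sh3. Of 29 genes tested (of 32), 22 fell (75.9%, beside 21.6% of all genes) and 3 rose (10.3%, beside 30.9%), with a median of -0.29. Against the mean of sh1 and sh2, 23 were lower and 2 higher (median -0.31). Fgf21, a secreted stress hormone, had the largest fall. It measured 7.32, 6.81 and 8.07 FPKM in the shLucif libraries and 0.407, 0.408 and 0.872 FPKM in the sh3 libraries. The sh3 mean was 7.60% of the control (log2 fold change -2.44, SE 0.145, limma adjusted p = 2.89e-07), and the level was 0.920 ± 0.282 FPKM with sh1 and 1.03 ± 0.280 FPKM with sh2. The serine synthesis gene Psat1 fell from 105 ± 0.765 to 56.4 ± 7.33 FPKM (-0.90, adjusted p = 1.91e-06), the mitochondrial folate enzyme gene Aldh1l2 from 48.0 ± 0.964 to 27.2 ± 3.52 FPKM (-0.81, adjusted p = 5.55e-06) and Ddit3, the factor CHOP, from 154 ± 3.87 to 91.7 ± 9.41 FPKM (-0.74, adjusted p = 4.68e-06). Atf4 itself fell from 328 ± 34.5 to 244 ± 6.06 FPKM (-0.42, adjusted p = 0.00824). Chac1, a glutathione-degrading enzyme gene, rose from 46.3 ± 1.38 to 83.4 ± 5.29 FPKM (0.83, adjusted p = 2.28e-07), as did the cystine transporter gene Slc7a11 (0.38) and Vldlr (0.65).

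Promoters of members that fell (Fgf21, Aars) and of the member that rose most (Chac1) are shown next, from RefSeq on GRCm38.p6 over the same window, with matches to the C/EBP-ATF response element, searched for as TGATGNAA on both strands, in capitals.
Fgf21, chr7:45615441-45615740, minus strand: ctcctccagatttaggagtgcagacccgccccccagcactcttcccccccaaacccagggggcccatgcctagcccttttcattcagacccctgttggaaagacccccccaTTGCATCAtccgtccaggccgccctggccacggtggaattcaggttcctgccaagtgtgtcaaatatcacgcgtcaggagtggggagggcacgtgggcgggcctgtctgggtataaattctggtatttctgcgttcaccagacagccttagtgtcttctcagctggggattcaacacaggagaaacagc
Aars, chr8:111033592-111033891, plus strand: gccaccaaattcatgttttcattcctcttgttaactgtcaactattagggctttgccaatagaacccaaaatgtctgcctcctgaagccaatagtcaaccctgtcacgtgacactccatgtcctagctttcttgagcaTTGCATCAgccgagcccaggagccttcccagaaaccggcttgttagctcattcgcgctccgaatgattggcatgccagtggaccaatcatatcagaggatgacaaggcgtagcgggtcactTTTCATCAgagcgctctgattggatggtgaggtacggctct
Chac1, chr2:119350992-119351291, plus strand: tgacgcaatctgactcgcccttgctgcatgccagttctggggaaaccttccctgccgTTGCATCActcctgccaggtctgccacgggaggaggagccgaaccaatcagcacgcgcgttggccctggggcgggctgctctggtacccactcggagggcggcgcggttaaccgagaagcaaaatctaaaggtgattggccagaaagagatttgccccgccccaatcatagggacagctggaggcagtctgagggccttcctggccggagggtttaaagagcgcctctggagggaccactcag

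Aars, an aminoacyl-tRNA synthetase gene, fell from 113 ± 3.81 to 78.8 ± 6.51 FPKM (-0.52, adjusted p = 1.15e-05). A match stood in 10 of the 25 members with a window (40%), against 2.55% of the tested genes with a window and 3.97% of all windows. The list was made of genes known for this response, so here too a high share was likely beforehand. Of the 10 members with a match, 3 rose and 5 fell (median -0.16), and of the 15 without one, 0 rose and 14 fell (median -0.40). The motif was therefore present both in genes that fell and in all 3 that rose.

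Other stress programmes were mixed. Endoplasmic reticulum chaperones had 8 higher (40%, beside 30.9% of all genes) and 5 lower (25%, near the 21.6% of all genes) of 20 tested (median 0.18). Sdf2l1 (0.88), Hspa13 (0.81), the disulfide isomerase gene Pdia4 (0.59) and Edem1 (0.48) rose, whereas Dnajc3 (from 22.6 ± 0.175 to 13.1 ± 0.136 FPKM, -0.74, adjusted p = 5.71e-08), Hspa5, which encodes BiP (from 376 ± 9.61 to 294 ± 17.6 FPKM, -0.36, adjusted p = 2.8e-05), and Manf (-0.34) fell. The lower call of Dnajb9 (-0.26) was lost in 3 settings, among them those without shLucif replicate 1 or 3 or sh3 replicate 2 (adjusted p = 0.0524 to 0.0707). The list of cytosolic heat shock proteins, which also holds the mitochondrial genes Hspe1 and Hspd1, had 6 higher (46.2%, beside 30.9%) and 3 lower (23.1%, near 21.6%) of 13 (median 0.17). The small heat shock gene Cryab led the rises, at 11.3, 12.3 and 11 FPKM in the shLucif libraries and 45.0, 46.2 and 44.7 FPKM in the sh3 libraries. Its sh3 level was 3.93 times the control (log2 fold change 1.89, SE 0.0634, limma adjusted p = 7.45e-09), and the level was 36.4 ± 3.44 FPKM with sh1 and 32.8 ± 1.03 FPKM with sh2. The chaperone gene Hsp90ab1 rose by 0.56, and the mitochondrial pair Hspe1 and Hspd1 fell by 0.56 and 0.41 on the log2 scale. Among p53 targets, 10 of 21 tested fell (47.6%, beside 21.6% of all genes) and 5 rose (23.8%, beside 30.9%), with a median of -0.22. Only 3 were higher calls without shLucif replicate 1 or 2 or sh3 replicate 2, or when scaled to the same median. Trp53inp1 (from 4.98 ± 0.0501 to 1.98 ± 0.0648 FPKM, -1.01, adjusted p = 4.47e-06), Gadd45a (-0.81), Mdm2 (-0.61) and Btg2 (-0.61) fell, while the classic target Cdkn1a was not called (-0.01, adjusted p = 0.939).

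NRF2 antioxidant genes had 10 higher (43.5%, beside 30.9% of all genes) and 2 lower (8.7%, beside 21.6%) of 23 tested (median 0.21). With the libraries scaled to the same median, 7 were higher and 5 lower. The pentose phosphate genes Pgd (from 14.1 ± 0.464 to 26.1 ± 4.24 FPKM, 0.83, adjusted p = 5.4e-05), Tkt (0.58) and Taldo1 (0.56) and catalase (Cat, 0.68) rose, and the gene of NRF2 itself, Nfe2l2, fell by 0.28 on the log2 scale. The other lower call, the ferritin gene Fth1 (-0.12), was lost without any 1 of the 6 libraries (adjusted p = 0.0521 to 0.11). In glycolysis and the hypoxia response 8 of 24 tested rose and 6 fell (median 0.09), shares near those over all genes, and with the libraries scaled to the same median there were 7 higher and 8 lower calls. The enolase genes went opposite ways, Eno1 from 140.3 ± 9.27 to 269 ± 24.0 FPKM (0.93, adjusted p = 4.29e-06) and Eno2 from 18.0 ± 2.25 to 8.21 ± 1.32 FPKM (-1.05, adjusted p = 0.000313). Ndrg1 fell from 88.2 ± 1.86 to 36.6 ± 4.23 FPKM (-1.25, adjusted p = 1.71e-07) and Hk2 by 0.49 on the log2 scale, while the higher call of Bnip3 (0.84) was lost in 3 settings, among them those without shLucif replicate 2 or sh3 replicate 1 (adjusted p = 0.0606 to 0.0639).

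Mitosis genes were mostly higher and DNA replication genes were split. Of 28 mitosis genes tested, 21 rose (75%, beside 30.9% of all genes) and 0 fell (median 0.32), and 19 to 22 rose across the alternative settings. The kinesin gene Kif20a rose from 41.7 ± 1.81 to 63.6 ± 5.03 FPKM (0.59, adjusted p = 9.5e-06), the checkpoint kinase gene Bub1 from 15.4 ± 0.331 to 21.5 ± 1.08 FPKM (0.45, adjusted p = 3.53e-05), and Cdc20 and Ttk by 0.45 and 0.44. DNA replication genes had 11 higher and 13 lower of 34 (median 0.01, which changed sign under both other scalings), and 7 higher and 15 lower with the libraries scaled to the same median. As deposited, their higher share was 32.4%, near the 30.9% of all genes, and their lower share 38.2% beside 21.6%. The nucleotide synthesis gene Rrm2 fell from 111 ± 1.81 to 54.5 ± 0.667 FPKM (-1.01, adjusted p = 3.1e-09), and the helicase subunit gene Mcm3 from 73.6 ± 2.58 to 36.8 ± 1.2 FPKM (-0.98, adjusted p = 1.71e-07). Fen1, the flap endonuclease gene, measured 42.7, 37.6 and 39.4 FPKM in the shLucif libraries and 23, 22.9 and 9.64 FPKM in the sh3 libraries. Its sh3 libraries differed widely among themselves, with a called fold change of -1.16 (SE 0.300, limma adjusted p = 0.00712) that was -0.77 without sh3 replicate 3. The ligase gene Lig1 rose by 0.67, Pold1 by 0.40 and Ccne1 by 0.38. Immediate early genes had 11 higher (47.8%, beside 30.9% of all genes) and 7 lower (30.4%, beside 21.6%) of 23 (median 0.12). Klf2 (from 8.56 ± 0.355 to 23.5 ± 0.495 FPKM, 1.36, adjusted p = 1.37e-08), Jun (from 26.0 ± 1.86 to 53.1 ± 6.69 FPKM, 0.99, adjusted p = 5.92e-06), Dusp1 (0.88) and Egr1 (0.86) rose, and Dusp4 fell (from 56.3 ± 0.319 to 32.5 ± 1.24 FPKM, -0.77, adjusted p = 5.51e-07).

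Organelle genes showed small shifts. Of 35 nuclear genes of the respiratory chain, 14 fell (40%, beside 21.6% of all genes) and 3 rose (8.57%, beside 30.9%), with a median of -0.15. Cox6a2, the muscle-type isoform of a cytochrome c oxidase subunit, was at 23.7, 20.1 and 21.8 FPKM in the shLucif libraries and 3.09, 3.64 and 4.58 FPKM in the sh3 libraries. It fell far more than the rest (log2 fold change -2.27, SE 0.138, limma adjusted p = 3.3e-07), with 9.70 ± 2.16 FPKM with sh1 and 9.46 ± 0.526 FPKM with sh2, whereas Cycs and Uqcrq fell by 0.56 and 0.55 on the log2 scale. Of 13 mitochondrially encoded mRNAs, 0 rose and 2 fell (15.4%, beside 21.6% of all genes), and 1 rose and 1 fell after quantile normalization. The lower call of mt-Co2 (-0.23) was lost in 8 settings, among them those without shLucif replicate 1 or 3 or sh3 replicate 2 or 3 (adjusted p = 0.0886 to 0.115). Cytosolic ribosomal protein genes had 7 higher (15.2%, beside 30.9% of all genes) and 18 lower (39.1%, beside 21.6%) of 46 (median -0.06). These counts were 9 and 18 after quantile normalization and 3 and 22 (median -0.14) when scaled to the same median. As deposited, Rplp1 was the lowest (-0.43), and Rpl37 (0.25), Rps4x (0.23) and Rps15 (0.23) were among the higher calls. That of Rps28 (0.28) was lost in 5 settings, among them those without shLucif replicate 2 or 3 or sh3 replicate 1 (adjusted p = 0.0566 to 0.0643). Lysosome genes had 15 higher (51.7%, beside 30.9% of all genes) and 11 lower (37.9%, beside 21.6%) of 29 (median 0.11). This balance turned to 11 higher and 13 lower with the libraries scaled to the same median. The hydrolase genes Glb1 (from 13.1 ± 0.658 to 22.8 ± 0.604 FPKM, 0.75, adjusted p = 1.29e-06) and Gusb (0.72) and the factor gene Tfeb (0.60) rose, and the protease gene Lgmn (from 25.1 ± 0.332 to 15.4 ± 1.63 FPKM, -0.67, adjusted p = 6.99e-06) and the proton pump genes Atp6v0d1 (-0.58) and Atp6v1h (-0.40) fell. RNA interference machinery had 7 higher (58.3%, beside 30.9% of all genes) and 3 lower (25%, near the 21.6% of all genes) of 12 (median 0.27). Under either other scaling 5 were lower. Prkra (from 6.16 ± 0.0590 to 10.1 ± 1.24 FPKM, 0.62, adjusted p = 0.000143), Ago1 (0.54), Dgcr8 (0.37) and Drosha (0.34) rose, Tnrc6c (-0.44), Ago3 (-0.28) and the exporter gene Xpo5 (-0.28) fell, and Ago2 was not called (-0.09, adjusted p = 0.138).

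Outside these lists, several of the largest falls were in genes of unrelated kinds. Avil, which encodes the actin regulator advillin (ENSMUSG00000025432, chromosome 10, 127000709 to 127020994), measured 56.2, 60.6 and 52.6 FPKM in the shLucif libraries and 5.06, 5.47 and 9.66 FPKM in the sh3 libraries. The sh3 level was 11.9% of the control (log2 fold change -2.94, SE 0.169, limma adjusted p = 2.25e-07), and it was 39.0 ± 2.51 FPKM with sh1 and 35.9 ± 2.34 FPKM with sh2. Ostn, the gene of the secreted peptide osteocrin, was at 11.1, 11 and 10.1 FPKM in the shLucif libraries and 0.517, 0.405 and 0.787 FPKM in the sh3 libraries. Here the other hairpins lay just above the control range, with 13.0 ± 1.2 FPKM with sh1 and 12.9 ± 0.802 FPKM with sh2 (log2 fold change -2.91, SE 0.0914, limma adjusted p = 5.09e-09 for sh3 against shLucif and -3.15, adjusted p = 2.28e-10 against their mean). Dynap, dynactin associated protein, fell from 92.9 ± 3.89 to 22.9 ± 6.04 FPKM (-2.0, adjusted p = 6.65e-07), with 121 ± 2.07 FPKM with sh1 and 111 ± 10.3 FPKM with sh2. Sh2d6, an SH2 domain gene, fell from 10.1 ± 1.07 to 1.86 ± 0.734 FPKM (-1.99, adjusted p = 1.58e-06), with 11.2 ± 1.14 FPKM with sh1 and 8.80 ± 0.768 FPKM with sh2.

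The largest rises were as varied. U90926 (ENSMUSG00000029409, chromosome 5, 92209893 to 92215408) measured 0.940, 0.790 and 0.752 FPKM in the shLucif libraries and 10.02, 9.88 and 14.1 FPKM in the sh3 libraries. That is 13.7 times the control mean (log2 fold change 2.74, SE 0.159, limma adjusted p = 2.43e-07), and the level was 0.431 ± 0.0437 FPKM with sh1 and 0.438 ± 0.325 FPKM with sh2. It reached 1 FPKM in the sh3 libraries only, so that it was tested only through the group where it is high. Hbb-bh1, an embryonic globin gene, measured 0.690, 0.609 and 0.691 FPKM in the shLucif libraries and 10.8, 9.13 and 8.50 FPKM in the sh3 libraries. The sh3 libraries were all higher (log2 fold change 2.65, SE 0.109, limma adjusted p = 2.49e-08), and its level was 4.88 ± 0.467 FPKM with sh1 and 4.80 ± 0.789 FPKM with sh2. The 9 erythroid markers summed to 0.874 to 0.97 FPKM with shLucif and 8.73 to 11.4 with sh3, and 8 of them were below 1 FPKM in all 6 libraries, so that nearly all of the sum is Hbb-bh1. Clca3a1, a chloride channel accessory gene (ENSMUSG00000056025, chromosome 3, 144729677 to 144760977), was at 10.9, 10.9 and 11.3 FPKM in the shLucif libraries and 60.7, 59.2 and 55.5 FPKM in the sh3 libraries. The sh3 mean was 5.29 times the control (log2 fold change 2.30, SE 0.0578, limma adjusted p = 9.58e-10), with 14.6 ± 0.300 FPKM with sh1 and 15.1 ± 1.32 FPKM with sh2. The secreted netrin gene Ntn4 rose from 0.789 ± 0.0764 to 5.67 ± 0.388 FPKM (1.90, adjusted p = 1.63e-08), the annexin gene Anxa8 from 5.57 ± 0.261 to 20.7 ± 2.01 FPKM (1.72, adjusted p = 3.48e-08) and Cavin3, a caveolar coat gene, from 13.5 ± 0.508 to 55.7 ± 4.24 FPKM (1.97, adjusted p = 1.32e-08). Sema6b (from 3.05 ± 0.400 to 13.3 ± 1.55 FPKM), Podnl1 (from 1.37 ± 0.108 to 6.86 ± 0.843 FPKM), 4930486L24Rik (from 2.32 ± 0.527 to 12.7 ± 1.64 FPKM) and the nuclear envelope gene Nrm (from 6.74 ± 0.997 to 24.3 ± 1.87 FPKM) rose by log2 fold changes of 1.82, 1.73, 2.05 and 1.71. The levels with sh1 and sh2 were 2.99 ± 0.131 and 2.78 ± 0.337 FPKM for Ntn4, 17.9 ± 1.57 and 18.2 ± 0.377 for Anxa8, 21.4 ± 2.12 and 22.4 ± 0.985 for Cavin3 and 2.92 ± 0.283 and 2.43 ± 0.252 for Sema6b. All hairpin groups were set against the same 3 shLucif libraries, so the levels are given side by side and no likeness between hairpins was tested.

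The direct contrast of sh3 with the mean of sh1 and sh2 asks which values differ between hairpins against 1 target. Its lowest values among genes called in both contrasts were interferon-stimulated genes, Usp18 (-4.58), Ifit1 (-3.99), Ifit3 (-3.95), Rsad2 (-3.81), Ifi44 (-3.77), Isg15 (-3.71) and Zbp1 (-3.62), with limma adjusted p between 3.22e-11 and 7.61e-10. Exosc6, a subunit gene of the RNA exosome, was the exception in function. It measured 1.26, 25.8 and 29.0 FPKM in the shLucif libraries and 0.954, 0.665 and 2.01 FPKM in the sh3 libraries. The first shLucif library stood apart from the other 2, its range overlapped with that of sh3, and its call against shLucif (-2.51, adjusted p = 0.0161) was lost in 5 settings, among them those without shLucif replicate 2 or 3 or sh3 replicate 2 (adjusted p = 0.052 to 0.0666). Its level was 28.2 ± 1.2 FPKM with sh1 and 27.6 ± 1.5 FPKM with sh2. The highest values were those of U90926 (3.10), the adhesion gene Cadm4 (2.47, from 5.17 ± 0.759 to 15.9 ± 0.967 FPKM against shLucif and 2.13 ± 0.198 FPKM with sh1 and 2.0 ± 0.32 FPKM with sh2), Sema6b (1.96), Ctgf (1.96), Clca3a1 (1.91), the scaffold gene Slc9a3r2 (1.87), the profilin gene Pfn2 (1.85) and the kallikrein gene Klk10 (1.84). Klk10 measured 47.7, 51.9 and 52.2 FPKM in the shLucif libraries and 135, 137 and 127 FPKM in the sh3 libraries. Its groups were apart (log2 fold change 1.38, SE 0.0624, limma adjusted p = 5.09e-08), with 36.4 ± 1.74 FPKM with sh1 and 36.6 ± 3.03 FPKM with sh2. Pfn2 rose from 9.47 ± 0.302 to 20.8 ± 1.14 FPKM against shLucif (1.06, adjusted p = 1.59e-06), with 5.32 ± 0.643 FPKM with sh1 and 4.81 ± 0.499 FPKM with sh2, and the call of Slc9a3r2 against shLucif (0.52) was lost in 4 settings, among them those without shLucif replicate 2 or sh3 replicate 1 or 3 (adjusted p = 0.0508 to 0.0805).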

How the data were processed

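RNA libraries of CT26 cells were compared by FPKM, the values deposited by the authors as 1 table of 55335 genes. Per the labels' protocols, total RNA was sequenced in paired reads and trimmed with Skewer. Per the submitters' processing notes, the build was GRCm38 and the tools were HISAT2, STAR, DESeq2 and edgeR, while the tool behind the FPKM is not given in the sources used here. Read totals cannot be had from FPKM, so depth is unknown and counting intervals are not printed. The table was assigned by its column names, because its own name is that of the drug experiment, and 15 of its columns of per-sample values belong to other groups or match no label and were not used. Columns of sh1 were used as a group.

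Genes that reached 1 FPKM in 3 or more of the 12 CT26 hairpin libraries (shLucif, sh1, sh2 and sh3) were tested on log2(FPKM + 1) in limma 3.58.1 (R 4.3.3), fitting a mean per group and a mean-variance trend, two-sided. A call is a Benjamini-Hochberg adjusted p under 0.05 over all genes tested. Sharing 1 model gives all groups 1 estimate of the spread. With 3 libraries against 3, an exact permutation of a single gene cannot give a p under 0.1, so none was used. The fit was checked on simulated data. Gene classes and coordinates come from GENCODE M21, in which 55154 IDs were found. Same-numbered shLucif and sh3 libraries did not deviate together, so they were not paired.

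Members, the 31 gene lists and 6 marker lists (880 of 883 entries matched) and the tests were chosen with earlier results of these data known. The text names Soat1, Soat2, Gpr132, Cyp11a1, Abca1, Srebf2 and Cd274, the 15 highest and 15 lowest fold changes of called protein-coding genes with a group mean of at least 5 FPKM and no overlap between groups, up to 4 called members per list and direction, and the 8 highest and 8 lowest differences of sh3 from the mean of sh1 and sh2 among protein-coding genes called in both contrasts. Some genes that this rule names are not reported here. Other genes were named after their values were seen. The alternatives were another pseudocount, no filter, a higher minimum, 2 scalings, protein-coding genes only, only the groups compared, a replicate block, a length correction and leaving out each library.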

Additional observations from a re-analysis of the deposited data

How the results depend on the processing

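The 258 named and called genes were called in the main fit of these same libraries, so few reversals were likely beforehand. Under the 15 alternatives, 0 of those with a value reversed direction. Between 0 and 17 lost their call per setting, the most with no filter on low values. A value was left for 224 of them with a minimum of 5 FPKM and for 256 or 257 without 1 library. Lists of interferon-stimulated genes (50 to 52 lower), cholesterol biosynthesis (13 to 15 higher), TGF-beta and BMP response (13 to 14 higher), ATF4 targets (21 to 23 lower) and extracellular matrix (18 to 22 higher) kept their counts within these ranges. With a pseudocount of 0.1 FPKM, genes called at 2-fold or more numbered 654 against shLucif and 805 against the mean of sh1 and sh2, in place of 313 and 401. With a minimum of 5 FPKM, which tests fewer genes, higher calls were 2389 and 2689. Leaving out 1 library gave 5396 to 5836 calls against shLucif and 6171 to 6539 against the mean of sh1 and sh2. With the replicate number as a replicate block, for which sh1 was left out, 6221 genes were called against shLucif (3635 higher, 2586 lower) and 6508 against sh2. The correlations of deviations of same-numbered shLucif and sh3 libraries were -0.00282, 0.00832 and 0.0223. The call of Ccng1 was lost in 6 settings, among them those without shLucif replicate 1 or 2 or sh3 replicate 1 or 2 (adjusted p = 0.0539 to 0.0676), that of Col3a1 was lost in 8 settings, among them those without shLucif replicate 1, 2 or 3 or sh3 replicate 1 or 2 (adjusted p = 0.0714 to 0.118) and that of Hsp90aa1 was lost in 3 settings, among them those without shLucif replicate 1 or sh3 replicate 2 (adjusted p = 0.057 to 0.0651). Of the list counts, 59 of 1080 values moved by over 1.5 times, mostly counts of 5 or fewer. Low genes are limited by the pseudocount and by the unknown depth.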

Other observations

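The counts of 3 gene families outside the lists, picked after their values were seen, are given beside the 52.5% of all genes called (30.9% higher, 21.6% lower). Caveolae are flask-shaped pits of the plasma membrane built from caveolins and cavins. Of 6 such genes tested, 5 rose and 0 fell (median log2 fold change 0.91), a count that both other scalings left at 5. Cavin2 rose from 38.8 ± 0.156 to 93.6 ± 5.28 FPKM (log2 fold change 1.25, SE 0.0555, limma adjusted p = 4.44e-08), Cav2 from 22.4 ± 2.25 to 54.8 ± 1.49 FPKM (1.26, adjusted p = 8.17e-06), Cavin1 from 94.6 ± 2.29 to 129 ± 7.31 FPKM (0.44, adjusted p = 1.03e-05) and Cavin4 from 6.28 ± 0.966 to 9.82 ± 0.671 FPKM (0.58, adjusted p = 0.00045). Cav1, the main structural caveolin, measured 29.8, 27.9 and 19.8 FPKM in the shLucif libraries and 23.7, 24.6 and 22.7 FPKM in the sh3 libraries. These ranges overlapped and it was not called (-0.10, adjusted p = 0.479). Against the mean of sh1 and sh2, 5 of the 6 genes were higher with sh3, Cav1 among them, and 1, Cavin4, was lower. The level of Cavin4 was 14.7 ± 1.17 FPKM with sh1 and 14.9 ± 0.998 FPKM with sh2 (log2 difference -0.54, limma adjusted p = 0.000195). The level of Cav2 was 34.9 ± 7.62 FPKM with sh1 and 44.2 ± 2.69 FPKM with sh2. Tubulin genes had 5 higher and 0 lower of 10 tested as deposited (median 0.08 beside 0.04 for all genes), a called share near that of all genes, and 4 higher and 2 lower with the libraries scaled to the same median. The neuronal isoform gene Tubb3 rose from 2.97 ± 0.112 to 11.7 ± 0.916 FPKM (log2 fold change 1.68, SE 0.0964, limma adjusted p = 2.25e-07), Tubb5 from 252 ± 7.38 to 487 ± 37.9 FPKM (0.95, adjusted p = 2.39e-06) and Tubb2a from 16.7 ± 2.29 to 32.9 ± 3.49 FPKM (0.94, adjusted p = 8.04e-06). Hox genes, which set position along the body axis, had 8 higher and 0 lower of 12 tested (7 higher under either other scaling), among them Hoxc6 (from 6.62 ± 0.384 to 10.4 ± 0.223 FPKM), Hoxa9 (from 3.19 ± 0.215 to 5.25 ± 0.302 FPKM) and Hoxa10 (from 3.72 ± 0.0377 to 5.76 ± 0.456 FPKM).

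A further set of genes, also picked after their values were seen, was low with sh3 while both other hairpins were nearer to the shared control. Mapkapk2, the kinase MK2 that acts below p38, measured 67.6, 66.5 and 67.1 FPKM in the shLucif libraries and 18.2, 17.4 and 18.5 FPKM in the sh3 libraries. The groups were far apart (log2 fold change -1.84, SE 0.0374, limma adjusted p = 2.48e-10), and the level was 67.0 ± 2.62 FPKM with sh1 and 63.6 ± 1.18 FPKM with sh2 (log2 difference -1.80, limma adjusted p = 2.82e-11 for sh3 against their mean). Gnb1, a G protein beta subunit gene, fell from 108 ± 12.3 to 32.0 ± 3.03 FPKM (-1.72, adjusted p = 5.2e-08), with 89.4 ± 2.29 FPKM with sh1 and 88.2 ± 0.699 FPKM with sh2. Maged1 fell from 173 ± 6.82 to 63.3 ± 0.807 FPKM (-1.44, adjusted p = 5.09e-09), with 179.9 ± 5.62 FPKM with sh1 and 170.1 ± 9.50 FPKM with sh2. Rnf115, a ubiquitin ligase gene, fell from 24.4 ± 0.909 to 7.84 ± 0.175 FPKM (-1.52, adjusted p = 1.24e-08), with 22.9 ± 1.69 FPKM with sh1 and 23.6 ± 1.08 FPKM with sh2. Hmga2, a chromatin architecture gene, fell from 114 ± 5.02 to 43.9 ± 1.05 FPKM (-1.35, adjusted p = 1.21e-07), with 136 ± 16.2 FPKM with sh1 and 145 ± 2.18 FPKM with sh2. Against the mean of sh1 and sh2 the log2 differences of these last 4 were -1.45, -1.45, -1.46 and -1.65. Unlike this set, the small nucleolar RNA host gene Snhg5, also picked after its values were seen, rose from 14.5 ± 1.62 to 38.5 ± 3.66 FPKM (1.35, adjusted p = 3.12e-06). What links these genes was not tested.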
